A study of Drosophila melanogaster with 19 samples.

Results

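Circular RNAs of fruit fly heads were compared between libraries with the number 29 and libraries with the number 18 in their titles, after treatment of the RNA with RNase R. The libraries were taken by the names given for each count in the junction tables of *Drosophila melanogaster* heads, and they are 8 of the 19 libraries of the series. Heads with title number 29 gave 4 libraries, 2 from flies with the C4 mutation in a Canton-S background (slow29) and 2 from wild-type Canton-S flies (WT29). Heads with title number 18 gave the other 4, again 2 from C4 flies (slow18) and 2 from wild-type flies (WT18). C4 changes the largest RNA polymerase II subunit, and the mutant enzyme elongates slowly. Junction counts cannot show this protein change, and genotypes rest on the labels alone. The sources used here do not say what the numbers 29 and 18 stand for, nor the age and sex of the flies, and both numbers serve below only as names. The labels do not say whether replicates were separate groups of flies, so p-values reflect library-to-library spread, part or all of which may be technical.

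A circular RNA forms when the end of an exon is spliced back to the start of the same exon or of an earlier one, which closes the RNA into a ring. A read across this join, the back-splice junction, is taken as a sign of the ring, although a read alone does not prove it. RNase R degrades linear RNA from its 3′ end and spares closed rings, so treated libraries are richer in back-splice reads. Circles accumulate in nervous tissue of flies and mammals, where they outlive the linear messages of their host genes, and muscleblind (mbl), a splicing regulator, is the host gene of a well-known fly circle that its own protein helps to form. One gene can give several circles, so single junctions were tested first, then their sums per host gene, and then the share of each junction among those of its gene.

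Depth ran from 11115 to 20254 listed back-splice reads in the 29 libraries, with a mean of 15013 ± 4082 (SD, n = 4), and from 4871 to 16714 in the 18 libraries, with a mean of 9979 ± 5515 (SD, n = 4). The 2 slow18 libraries were the shallowest of the 8, with 6125 and 4871 reads. The mean totals differed by 5034 reads, a difference that 4 libraries on each side did not resolve (exact two-sided permutation test over 70 splits, p = 0.229). Over the 8 libraries 4334 junctions had reads. The 1221 that were listed in the tables of both replicates, had at least 10 reads and had reads in at least 2 libraries were tested, and they held 89.6% of the reads. Values below are reads per 10000 listed back-splice reads of a library, and coordinates are those of the build dm3, counted from 1. Junctions of the photoreceptor genes trp, ninaE and norpA had reads, as did 13 of 30 photoreceptor genes on the list used, while the scaffold gene inaD had none.

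Between the title numbers, 69 junctions were higher at 29 (5.65% of those tested) and 110 were lower (9.01%) in edgeR's quasi-likelihood test with genotype as a factor and Benjamini-Hochberg adjusted p below 0.05. Lower at 29 were circles of the synaptic scaffold gene dlg1, of the membrane glycoprotein gene Bsg, of the receptor phosphatase gene Lar and of CG42345 (stw, the cuticle-tanning enzyme laccase 2). Higher at 29 were circles of the ankyrin gene Ank2, of the calcium sensor gene Stim, of the metabotropic glutamate receptor gene mGluRA and of the secretion gene Caps (Cadps). The 4 libraries of 29 did not overlap the 4 of 18 at 119 of the 179 called junctions. Among all tested junctions the groups were apart in the higher direction at 88 (7.21%) and in the lower direction at 109 (8.93%). The number of higher against lower calls depended on how the libraries were scaled to each other. With TMM factors over all tested junctions, 94 were higher and 74 lower, and with RLE factors 92 and 76, while the median change of all tested junctions moved from -0.153 to 0.073 and 0.048 on the log2 scale. DESeq2 called 49 higher and 40 lower. A core of 132 junctions, 58 higher and 74 lower, was called under each of the 6 scalings run with edgeR, and 82 of them, 42 higher and 40 lower, by DESeq2 as well. Without replicate 2 of WT18, 105 junctions were called, 34 higher and 71 lower, and without replicate 1 of WT18, 45 were higher.

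**Figure D1:**
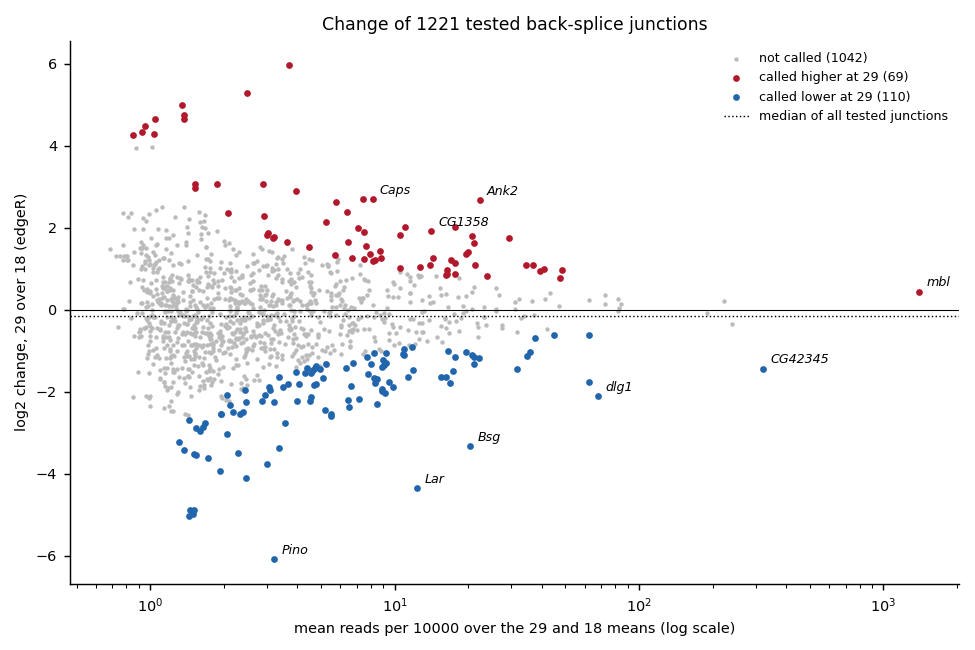
Log2 change of each of the 1221 tested junctions, 29 over 18 (vertical axis, edgeR), against its mean reads per 10000 (horizontal axis, log scale). The 69 junctions called higher are red, the 110 called lower are blue, the others are grey, and the dotted line is the median of all tested junctions, -0.153. CG42345 and mbl are the most abundant called junctions, and Pino is the lowest point.

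The 28 junctions with the smallest p among those that moved one way in all 4 library pairs of one genotype and replicate number, 12 higher and 16 lower, were called under each scaling and by DESeq2. None of them lost its call when any 1 library was left out. In a fit of the 4 slow libraries alone 7 of them lost the call, and in a fit of the 4 WT libraries alone 5 did. Their sign in slow and in WT heads is fixed by this choice and is no separate result.

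Among the circles that were lower at 29, dlg1 at X:11291858-11292855 on the plus strand led. Its gene encodes a membrane-associated guanylate kinase that organises synapses and cell junctions. The junction spans 998 bases, the distance from some exon start of the gene to some exon end, matched by length and not by position. It had 29.7 and 32.2 reads per 10000 in slow29 and 15.8 and 31.1 in WT29, against 111 and 117 in slow18 and 94.2 and 112 in WT18. Every 29 library was below every 18 library, and the first WT29 library was the lowest. The log2 change was -2.12 ± 0.20 (SE), with an edgeR adjusted p of 2.1e-22.

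Bsg, the gene for the immunoglobulin-domain glycoprotein basigin, gave a junction at 2L:8105692-8107880. It had 3.60 and 3.72 reads per 10000 in slow29 and 2.96 and 5.58 in WT29, against 26.1 and 24.6 in slow18 and 47.5 and 49.1 in WT18. The groups were far apart, and within 18 the WT libraries were higher than the slow ones. Its log2 change was -3.33 ± 0.32, with an edgeR adjusted p of 2.8e-22. For Lar, a receptor tyrosine phosphatase that guides axons, the junction at 2L:19714889-19715953 had 0 and 2.48 reads per 10000 in slow29 and 0.987 and 0.797 in WT29. In slow18 it had 16.3 and 16.4, and in WT18 27.9 and 34.1. The 29 libraries together held 7 reads of it, against 109 in the 18 libraries. The log2 change was -4.35 ± 0.44, with an edgeR adjusted p of 2.0e-20.

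CG42345, whose laccase hardens and darkens cuticle, was the most abundant of the circles that fell. Its junction at 2R:1311255-1311744 has the length of 1 coding exon. It had 148 and 175 reads per 10000 in slow29 and 219.7 and 166 in WT29, against 518 and 554 in slow18 and 412 and 378 in WT18. The groups did not overlap, and the slow18 libraries were the highest. The log2 change was -1.44 ± 0.16, with an edgeR adjusted p of 8.2e-17. A second CG42345 junction, at 2R:1327075-1328575, fell to 0.398 ± 0.797 reads per 10000 at 29, against 3.72 ± 2.11 at 18 (SD, n = 4 each).

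Other circles that fell came from genes of signalling, muscle and RNA binding. For bt, the titin-like muscle protein projectin, the junction at 4:756141-758535 had 7.52 ± 1.62 reads per 10000 at 29 and 26.4 ± 12.9 at 18 (SD, n = 4 each), a log2 change of -1.80 ± 0.30. The first slow18 library held 45.7 of it, and the other 18 libraries 18.8 to 20.5. The bZIP stress factor gene cnc had 8.44 ± 2.46 at 29 and 24.1 ± 9.45 at 18, and smi35A (Dyrk2), a protein kinase of the DYRK family, had 2.85 ± 2.43 at 29 and 14.1 ± 6.20 at 18. The RNA-binding protein gene cpo had 22.3 ± 2.89 at 29 and 47.2 ± 9.11 at 18, and klg, an immunoglobulin-domain adhesion gene, had 12.5 ± 6.75 and 29.8 ± 6.25. The groups did not overlap for any of these 5 junctions.

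At Pino, 2L:1116441-1117516, none of the 4 libraries of 29 had a read. The 18 libraries had 26 in all, 3 and 4 in slow18 and 6 and 13 in WT18. Set against 3 reads over the 29 libraries, the limit that a count of 0 allows, Pino was at least 13-fold lower. This limit and the counts cover counting error only. CG4266 (Isha), CG32541 (CG43759), CG32206 and CG31786 (CG42750) were also among the 16, with log2 changes between -2.38 and -1.65. Only CG31786 among the 16 had groups that overlapped, through 6.42 reads per 10000 in the first WT29 library against 4.90 in the first slow18 library.

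A junction with no host gene, 2R:6681630-6681989 on the minus strand, was also among the 16, with 28.6 ± 11.4 reads per 10000 at 29 and 96.3 ± 32.7 at 18 (SD, n = 4 each) and a log2 change of -1.78 ± 0.20. Its higher coordinate, 6681989, was shared by 4 tested junctions, all on the minus strand, and all of them fell. The others were an unnamed junction with the lower coordinate 6681349 (-0.97 ± 0.35), one labelled CG33144 with 6653974 (-1.88 ± 0.60) and one labelled mthl13 with 6670979 (-3.62 ± 1.04). Of the 6 called junctions without a host gene, 5 were lower at 29. A second unnamed one on the same arm, 2R:3173174-3173533 on the plus strand, spans 360 bases like the first and had 0.424 ± 0.492 reads per 10000 at 29 and 5.60 ± 2.14 at 18. Whether reads could be placed at both positions was not tested.

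**Figure D2:**
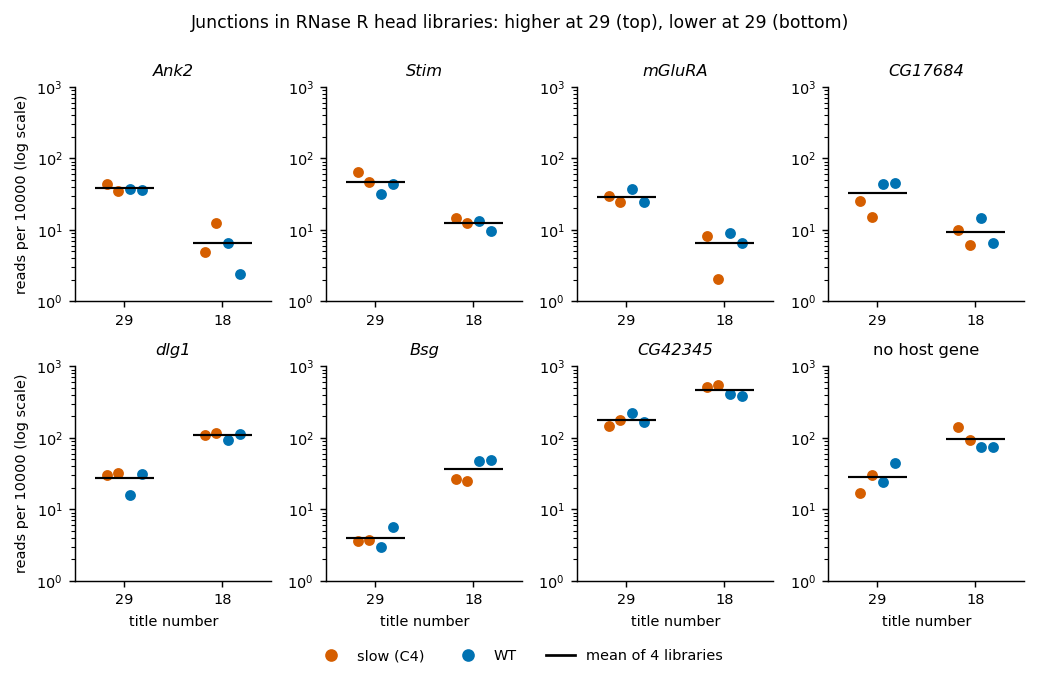
Reads per 10000 (log scale) in each of the 8 libraries for the 4 junctions higher at 29 and the 4 lower at 29 with the smallest p among called junctions with reads in every library. Points are libraries, orange for slow and blue for WT, and bars are means of 4. In each panel the 4 points of 29 lie on one side of the 4 points of 18, from 35.3 to 44.1 against 2.39 to 12.3 for Ank2 and from 15.8 to 32.2 against 94.2 to 117 for dlg1.

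Among the circles that were higher at 29, Ank2 led. Ankyrins tie membrane proteins to the spectrin skeleton, and Ank2 serves axons and synapses. Its junction at 3L:7655571-7655990 on the minus strand has the length of 1 coding exon, 420 bases. It had 44.1 and 35.3 reads per 10000 in slow29 and 37.0 and 35.9 in WT29, against 4.90 and 12.3 in slow18 and 6.55 and 2.39 in WT18. All 29 libraries were above all 18 libraries, and the 29 libraries lay close together. The log2 change was 2.67 ± 0.32, with an edgeR adjusted p of 6.3e-15.

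Stim, the sensor of calcium stores in the endoplasmic reticulum, gave a junction of 233 bases at X:15830832-15831064, the length of 1 coding exon. It had 64.8 and 47.1 reads per 10000 in slow29 and 31.1 and 43.0 in WT29, against 14.7 and 12.3 in slow18 and 13.1 and 9.57 in WT18. The groups did not overlap, and the log2 change was 1.76 ± 0.26 with an edgeR adjusted p of 3.6e-09. For mGluRA (mGluR), the metabotropic receptor for glutamate, the junction at 4:958958-959743 had 29.7 and 24.8 in slow29 and 36.5 and 24.7 in WT29. In slow18 it had 8.16 and 2.05, and in WT18 9.01 and 6.58. No 18 library reached the lowest 29 library, and the log2 change was 2.02 ± 0.31 with an edgeR adjusted p of 1.9e-08.

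Caps, a protein that primes dense-core vesicles for release, gave the junction 4:1250828-1259724. It had 19.8 and 13 reads per 10000 in slow29 and 17.8 and 7.17 in WT29, against 3.27 and 0 in slow18 and 1.64 and 2.39 in WT18. The groups did not overlap, and the log2 change was 2.69 ± 0.47. The LIM-homeobox gene ap (apterous) had 18.6 ± 3.08 at 29 and 3.54 ± 2.61 at 18 (SD, n = 4 each), a log2 change of 2.02 ± 0.38. CG1358 (HisT) had 23.5 ± 6.63 at 29 and 4.82 ± 1.97 at 18, and CG30089 had 33.4 ± 14.8 at 29 and 8.95 ± 3.96 at 18. The DNA-repair enzyme gene Parp (Parp1) gave a junction with the length of 1 exon at 3RHet:1964215-1964748. It had 29.4 ± 7.93 at 29 and 10.5 ± 2.55 at 18, a log2 change of 1.39 ± 0.29.

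The leading circles of CG17684 (32.2 ± 14.6 at 29 and 9.32 ± 3.97 at 18) and CG41099 (13 ± 3.35 at 29 and 1.89 ± 1.11 at 18) lie on heterochromatin scaffolds. KrT95D had 10.1 ± 4.83 at 29 and 1.47 ± 1.04 at 18. A junction of 116 bases without a host gene, 3R:7576892-7577007, had 15 and 12 reads in slow29, 13 and 3 in WT29 and none in the 18 libraries. Against 3 reads over the 18 libraries it was at least 9.53-fold higher. The 18 and 29 libraries did not overlap at any of the 12 leading higher junctions.

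The most abundant circles of the heads mostly did not pass the test. Of the 10 most abundant junctions, CG42345 was lower, mbl was higher and 8 were not called. The mbl circle at 2R:13162915-13163568 had 2081 and 2011 reads per 10000 in slow29 and 1234 and 1308 in WT29. In slow18 it had 1396 and 1178, and in WT18 1072 and 898. The WT29 libraries overlapped the slow18 libraries. The log2 change of 0.44 ± 0.15 had an edgeR adjusted p of 0.029, and the call was lost in WT heads alone, without replicate 2 of WT18, without any 1 of the slow libraries, and with TMM factors over the 100 junctions with most summed reads. The kinase gene CaMKI had 219 ± 60.4 at 29 and 262 ± 25.4 at 18 (-0.35 ± 0.16, edgeR adjusted p = 0.14). The helicase gene Dbp80 had 244 ± 47.8 at 29 and 202 ± 31.8 at 18 (0.22 ± 0.16), and the homeobox gene scro had 189 ± 19.9 and 189 ± 16.4 (-0.08 ± 0.16). The semaphorin receptor gene plexA had 83.9 ± 18.6 at 29 and 80.7 ± 10.4 at 18, and the O-GlcNAc transferase gene Ogt (sxc) had 85.5 ± 29.3 and 79.8 ± 13.3.

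Summed over all junctions of a gene, 45 of 828 host genes tested were higher at 29 (5.43%) and 85 were lower (10.3%). Of these 130, 96 were called under each of the 5 scalings run at this level. With RLE factors 64 were higher and 58 lower, DESeq2 called 35 and 26, and without replicate 2 of WT18 26 were higher and 56 lower, while 52 were lower without replicate 1 of WT29. Among genes with at least 2 tested junctions, those with the smallest p that fell included CG42345, Lar, bt, rdo, CG31149 (CG42613), smi35A and lt. Those that rose were Ank2, CG41099, CG17684, Caps, cpx, CG42402, CG30089 and CG40263 (MFS17). The sum of bt was 14.4 and 15.5 reads per 10000 in slow29 and 10.4 and 20.7 in WT29, against 70.2 and 51.3 in slow18 and 31.1 and 34.1 in WT18, and the groups did not overlap (-1.64 ± 0.23). For rdo it was 9.18 ± 2.93 at 29 and 29.4 ± 5.14 at 18 (-1.71 ± 0.28, SD, n = 4 each). lt, which encodes a subunit of the vesicle tethering complex HOPS, had 16.7 ± 10.4 at 29 and 38.4 ± 7.83 at 18.

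The sums of Caps and of cpx were both higher. All junctions of Caps together had 124 and 115 reads per 10000 in slow29 and 141 and 103 in WT29, against 57.1 and 59.5 in slow18 and 52.4 and 62.2 in WT18. The lowest 29 library lay well above the highest 18 library, and the log2 change was 0.99 ± 0.17. Complexin, the product of cpx, clamps and triggers the fusion of synaptic vesicles, and its junctions had 25.2 and 22.9 in slow29 and 26.7 and 32.7 in WT29. The 18 libraries had 3.27 and 8.21 in slow18 and 8.19 and 10.2 in WT18, and the log2 change was 1.70 ± 0.30. In 28 of the called genes no single junction was called. Conversely, 39 genes that were not called held a called junction.

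Junctions of one gene did not always move together. Of 259 genes with at least 2 tested junctions, 82 had a called one and 25 had 2 or more. In 8 of the 25 all called junctions were higher, in 11 all were lower, and in 6 (MESK2, Msp-300, Parp, Tm1, bl and pum) they ran both ways. This held under the main scaling. The falls at bl and pum lost their call with TMM over all tested junctions (edgeR adjusted p = 0.077 and 0.089) and with RLE factors. DESeq2 did not call the fall at Tm1 (adjusted p = 0.092) or the rise at MESK2 (0.076). It gave no adjusted p for the called junctions of Msp-300 and pum. Caps had 5 of its 10 tested junctions called, all higher, and the Pax6 gene toy 4 of 7, all higher. The largest group of mbl junctions, 12 tested, had 3 called, all higher. The titin-like bt had 2 of 3, all lower, and rdo 2 of 3, all lower. Several of these junctions share an end, as 3 of the called toy junctions have the coordinate 1012692, so they are not separate samples of a gene.

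**Figure D3:**
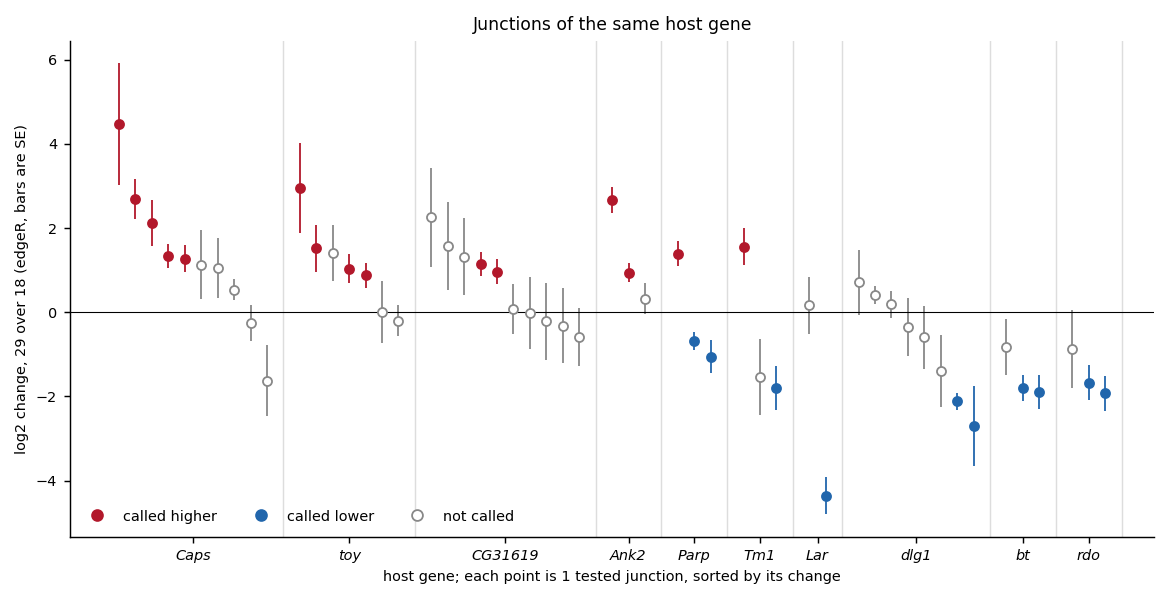
Log2 change of every tested junction of 10 host genes, 29 over 18 (edgeR, bars are SE), sorted within each gene. Filled red points were called higher, filled blue points lower, and open points were not called. Caps, toy and Ank2 have called junctions above 0 only, bt and rdo below 0 only, and Parp and Tm1 have both.

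The share of a junction among the tested junctions of its gene is formed within each library. It was called at 10 of 719 junctions (1.39%), 6 with a higher share at 29 and 4 with a lower one. Without replicate 2 of WT18, 2 of these calls remained and no other was made. Without replicate 1 of WT29, 3 calls were made, and without replicate 1 of WT18, 6.

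Within dlg1 the balance between 2 circles differed. X:11291858-11292855 made up 35.5% and 35.6% of dlg1 reads in slow29 and 15.8% and 24.2% in WT29, against 67.3% and 72.2% in slow18 and 56.4% and 62.1% in WT18. The neighbouring X:11289273-11290136 made up 51.6% and 52.7% in slow29 and 52.7% and 46.0% in WT29, against 22.8% and 16.5% in slow18 and 26.5% and 19.5% in WT18. In both circles the groups did not overlap. The log2 change of the share was -1.29 ± 0.23 for the first (edgeR adjusted p = 1.1e-05) and 1.25 ± 0.24 for the second (7.1e-05). Per 10000 reads the second circle had 50.7 at 29 and 35.9 at 18, which was not called (edgeR adjusted p = 0.194).

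In Parp the circle at 3RHet:1964215-1964748 rose while 2 others of the gene, at 3RHet:1936750-1937280 and 3RHet:2018688-2019257, fell under the main scaling, and the falls of both lost their call under other scalings. Its share was 44% and 42.7% in slow29 and 39.3% and 51.0% in WT29, against 22.2% and 14.3% in slow18 and 18.5% and 10.2% in WT18. The groups did not overlap (edgeR adjusted p of the share 5.7e-04). The sum over Parp was 66.7 ± 11.1 reads per 10000 at 29 and 66.1 ± 11.3 at 18 (SD, n = 4 each). For Tm1, one of the tropomyosin genes, the junction at 3R:11120835-11121266 had 11.3 ± 2.72 at 29 and 4.02 ± 1.81 at 18, and 3R:11110335-11111076 had 2.31 ± 0.777 at 29 and 7.26 ± 2.36 at 18. The share of the second was 16.3 ± 4.75% at 29 and 53.5 ± 14.1% at 18 (-1.83 ± 0.53, edgeR adjusted p = 0.038), on 84 reads at 29 and 52 at 18. The Tm1 sum was 14.7 ± 4.08 at 29 and 13.7 ± 2.90 at 18.

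Shares were also called at Ank2 and Lar. The leading circle of Ank2 made up 38.2 ± 7.5% of the reads of 3 tested Ank2 junctions at 29 and 15.4 ± 6.83% at 18 (1.41 ± 0.37, edgeR adjusted p = 0.017). A longer circle with the same lower coordinate, 3L:7655571-7656424, rose as well, with 53.3 reads per 10000 at 29 and 25.6 at 18. At Lar the second tested junction, 2L:19600858-19611626, had 2.53 reads per 10000 at 29 and 2.60 at 18 (0.16 ± 0.68). Its share was therefore higher at 29 (3.02 ± 0.68, edgeR adjusted p = 0.0015), on 23 Lar reads at 29 and 118 at 18. Lar has 2 tested junctions, so their shares mirror each other, yet the share of the leading one was not called (-1.50 ± 0.53, edgeR adjusted p = 0.135). The shares called at bl (HnRNP-K), MESK2, CG33275 and Msp-300 had edgeR adjusted p of 0.038 each. For bl, also with 2 tested junctions, the mirrored share of the other junction was not called (edgeR adjusted p = 0.635). For Msp-300 most reads of tested junctions lay in 2L:816665-8042117, 80.2 ± 6.83% at 29 and 68.4 ± 33.9% at 18. Ends so far apart make a single circle doubtful. Without junctions over 100 kb the same 10 shares were called.

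Genes were also grouped by 18 lists of function and cell type, and the counts are set beside the 5.65% higher and 9.01% lower of all tested junctions. The lists do not hold every gene of a class. The RNA-binding genes cpo and bl (HnRNP-K) and the kinase genes smi35A and Haspin, for example, stand on none of them. The counts and named calls below cover listed genes only. Synaptic vesicle genes had 7 higher and 0 lower of 33, with a median log2 change of 0.41 against -0.153 over all tested. All 7 belong to 2 genes, 5 to Caps and 2 to cpx. Under the other scalings and by DESeq2, 5 to 9 were higher and 0 or 1 lower, and without either library of WT18 4 were higher. The cpx junction 3R:108396-121422 had 17.1 and 18 reads per 10000 in slow29 and 15.3 and 17.5 in WT29, against 3.27 and 4.11 in slow18 and 3.28 and 5.98 in WT18. The groups were well apart (1.82 ± 0.38). Axon guidance and adhesion genes had 0 higher and 7 lower of 46, with a median of -0.533, in Bsg, Lar, klg, Fas1, Eph, ed and dpr (dpr1). Under the other scalings and by DESeq2, 4 to 7 were lower, and without replicate 1 of slow18 4 were. The adhesion gene Fas1 had 0.832 ± 0.720 at 29 and 6.31 ± 2.18 at 18. The ephrin receptor gene Eph had no read in the 29 libraries and was at least 5.01-fold lower.

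RNA-binding genes on the list had 6 higher and 4 lower of 56, with a median of 0.002. Higher were 3 mbl junctions, the sex-determination gene Sxl, the translational repressor gene aret (bru1) and 1 junction of pum. The Sxl junction at X:6984167-6984537 had 4.50 and 4.96 reads per 10000 in slow29 and 4.94 and 6.38 in WT29, against 1.63 and 0 in slow18 and 0.819 and 0 in WT18. Its groups did not overlap (3.08 ± 0.81). Lower were ps, the Nova-like splicing regulator pasilla, 2 junctions of sm and a second junction of pum. For ps the second slow29 library, at 26.0, lay within the range of 18, and the others of 29 lay at 8.89 to 9.90, against 22.1 to 27.8 at 18. Ion channel genes had 1 higher and 4 lower of 44. Higher was the T-type calcium channel gene Ca-alpha1T, and lower were the L-type gene Ca-alpha1D, the potassium channel gene SK at 2 junctions and CG34123 (Trpm). None of those 4 falls kept its call under each scaling. Without replicate 2 of WT18, 0 RNA-binding junctions were higher and 2 lower, and without replicate 1 of slow18, 2 were higher and 1 lower. Without either library of slow29, 0 ion channel junctions were called. In both lists, leaving out any library but replicate 2 of WT29 moved a count by over 1.5 times.

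Neurotransmitter receptor genes had 2 higher, mGluRA and the glutamate-gated chloride channel gene GluClalpha, and 1 lower, 5-HT2, of 28. Scaffold genes had 2 higher, in sdt and Caki (CASK), and 3 lower, in dlg1 at 2 junctions and CG5467 (scrib), of 30. Cytoskeleton genes had 2 higher, both in Ank2, and 1 lower, the adducin gene hts, of 29. GTPase regulators had 0 higher and 3 lower, among them spri and siz, of 25. Of 7 calcium signalling junctions 1 was higher, Stim. Kinases and other signalling enzymes had 1 higher, a second junction of Ogt, and 2 lower, the JNK kinase gene hep and the insulin receptor gene InR, of 33. Transcription factor genes had 4 higher, all in toy, and 4 lower, cnc, sima, tai and bab2, of 68. These counts are small, and for each of these 7 lists at least 1 count moved by over 1.5 times without some single library. Without replicate 2 of WT18, for example, 0 transcription factor junctions were higher, and without replicate 1 of WT29, 1 GTPase regulator junction was higher and 1 lower. Scaling moved them too. The falls of 5-HT2, hts, siz and dlg1 at X:11294821-11296820 lost their call with TMM over all tested junctions and with RLE factors. With each of these scalings 4 receptor junctions were higher and 0 lower. DESeq2 gave no adjusted p for GluClalpha. With TMM over the 100 junctions with most summed reads, 1 transcription factor junction was higher and 4 lower.

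Genes of insulin signalling, heat shock and stress had 0 higher and 3 lower of 9, with a median of -0.94. These 3 were cnc, sima, the hypoxia factor of flies, and InR. The sima junction had 11 ± 6.44 reads per 10000 at 29 and 24.2 ± 10.3 at 18, with overlapping groups. InR had 1 read in the 29 libraries, in slow29, and 4.90 and 10.3 reads per 10000 in slow18 and 3.28 and 0.598 in WT18. Circadian clock genes had 0 of 3 called.

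Markers of other tissues of the head were counted in the same way. Muscle genes had 2 higher and 4 lower of 13, with a median of -1.009, and their summed level ran from 54.0 to 92.4 reads per 10000 at 29 and from 86.2 to 148 at 18. The calls were bt at 2 junctions, Tm1 in both directions and Msp-300 in both directions, while the flight muscle actin gene Act88F and the light chain gene Mlc1 had no junction with reads. Fat body and cuticle genes had 1 higher and 3 lower of 6, and their summed level was 166 to 226 at 29 and 391 to 573 at 18, most of it CG42345. The others were the lipid enzyme gene CG8709 (Lpin), higher, and the yolk protein gene Yp3, lower with 0.310 ± 0.620 at 29 and 4.27 ± 1.91 at 18, while Fbp1 and Lsp1alpha were at 0. Of the glial list 3 junctions were tested, with bnb higher and gem, a transcription factor gene, lower, and the glial marker repo was at 0. Photoreceptor genes had 0 of 9 called and hemocyte and matrix genes 0 of 6, although without replicate 2 of WT29 each of the 2 lists had 2 lower. Without either library of WT18, 0 muscle junctions were higher. The part of these shares of tissue in the results was not tested, and in whole heads fewer cells of a type and fewer circles per cell cannot be told apart.

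**Figure D4:**
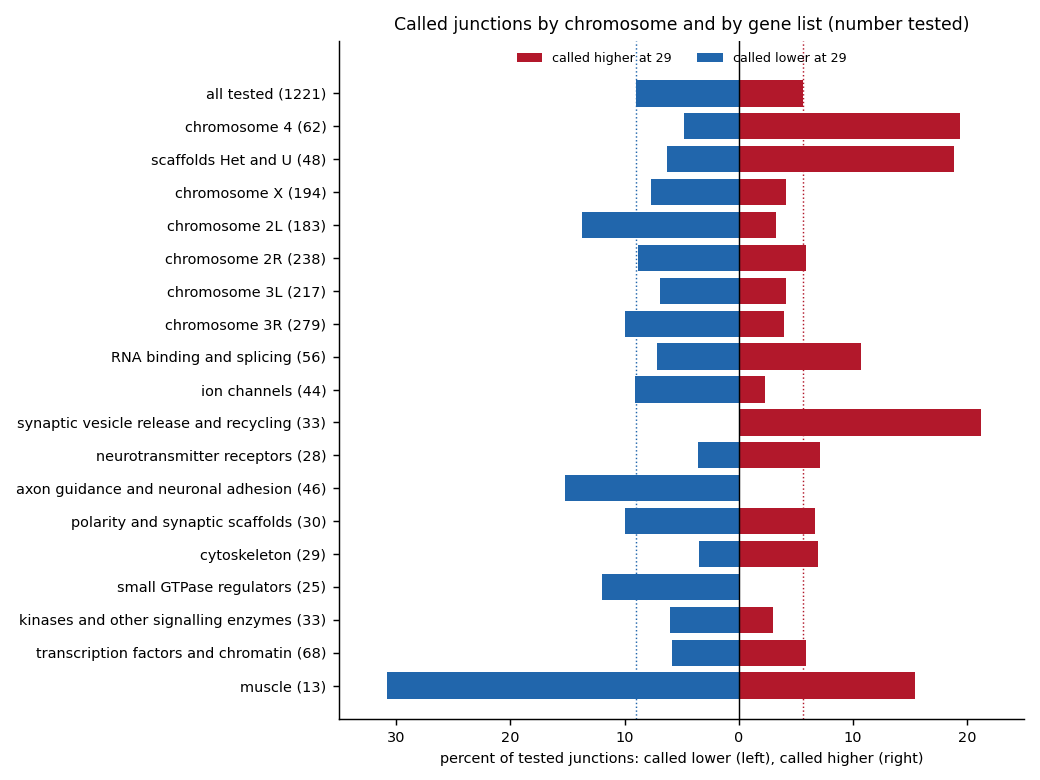
Percent of tested junctions called higher (right, red) and lower (left, blue) at 29, by chromosome and for the gene lists with at least 13 tested junctions, whose number stands in brackets. Dotted lines mark 5.65% and 9.01%, the shares of all tested junctions. Chromosome 4 has 19.4% higher, and no synaptic vesicle junction was lower.

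On chromosome 4 and on the heterochromatin scaffolds the higher calls outnumbered the lower ones. On chromosome 4, 12 of 62 tested junctions were higher (19.4%) and 3 lower (4.84%), with a median of 0.23. The 12 lie in 5 genes, Caps, toy, mGluRA, CG11155 and CG17471 (PIP4K), and the 3 are 2 of bt and 1 of Eph. On the scaffolds labelled Het and U, 9 of 48 were higher (18.8%) and 3 lower (6.25%), with a median of 0.48. The 9 lie in 7 genes. Besides CG17684, CG41099 and Parp these are CG42402, CG40263, Haspin and CG40084 (uex). The histone kinase gene Haspin had 63.9 and 50.8 reads per 10000 in slow29 and 75.0 and 51.0 in WT29, against 45.7 and 30.8 in slow18 and 38.5 and 23.9 in WT18, without overlap. The large arms together had 4.32% higher and 9.36% lower of 1111, and 2L had 6 higher and 25 lower of 183 (13.7%). Under the other scalings and by DESeq2, chromosome 4 had 8 to 14 higher and 2 to 5 lower, and the scaffolds 8 to 11 higher and 1 to 4 lower. Without replicate 2 of WT18, 5 junctions of chromosome 4 were higher, without replicate 1 of WT29, 6, and without replicate 1 of WT18, 7. Without replicate 2 of WT29 chromosome 4 had 5 lower, without replicate 2 of WT18 or replicate 1 of WT29 the scaffolds had 1 lower, and without replicate 1 of WT29 2L had 15 lower. Over the other scalings and DESeq2, 2L had 4 to 10 higher and 12 to 26 lower. Its higher count was 2 without replicate 2 of WT18 or replicate 1 of slow18, and 3 without replicate 1 of WT29 or replicate 2 of slow18. Junctions on chromosome 4 were also longer, with a median span of 1957 bases against 1169 over all tested. Calls in both directions were more frequent among abundant junctions. With a mean under 2 reads per 10000, 2.16% were higher and 3.34% lower, and with 20 and more, 20% and 21.5%. At 29 the 62 junctions of chromosome 4 held 8.47% of reads and the 48 of the scaffolds 11.3%, against 89.8% in all 1221.

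By span, long circles had few lower calls, and their share of higher calls was near that of all tested junctions (5.65% higher, 9.01% lower). Of junctions that span over 3000 and up to 10000 bases, 12 of 172 were higher (6.98%) and 3 lower (1.74%), and above 10000 bases 5 of 71 were higher (7.04%) and 3 lower (4.23%). Over 3000 bases, the other scalings and DESeq2 gave 11 to 22 higher and 2 to 7 lower. Of those over 3000 bases, 5 were higher without replicate 2 of WT18, 9 without replicate 2 of slow18, 10 without replicate 1 of WT29, and 11 without replicate 1 of WT18 or of slow18. Of those up to 500 bases, 10 of 196 were higher (5.1%) and 26 lower (13.3%). The excess of lower calls among these short circles depended on the scaling, with 14 higher and 18 lower by TMM over all tested junctions, 12 and 19 by RLE, and 9 and 11 by DESeq2. Without replicate 1 of WT29 15 were lower, and without either library of WT18 6 were higher. Junctions with the length of 1 wholly coding exon had 7 higher and 16 lower of 79. Chromosome and span overlap, and their parts and that of abundance in these counts were not separated.

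Summed over whole libraries, the scaffolds held 12.1% and 10.8% of back-splice reads in slow29 and 11.6% and 12.3% in WT29, against 9.36% and 10.1% in slow18 and 8.91% and 9.02% in WT18. The groups did not overlap, and the exact two-sided permutation p of 0.0286 is the smallest that 70 splits allow (0.107 adjusted over 15 library measures). Arm 2L held 9.05 ± 0.788% at 29 and 11.3 ± 1.10% at 18 (SD, n = 4 each), with the same exact p. Chromosome 4 held 9.03 ± 0.327% at 29 and 8.07 ± 0.418% at 18 (exact permutation p = 0.0571). mbl circles held 17.1 ± 4.46% at 29 and 11.6 ± 2.11% at 18 (exact permutation p = 0.0857). In 4871 reads drawn from each library, 1252 ± 29.4 different junctions were expected at 29 and 1301 ± 16.2 at 18, and 754 ± 10.1 host genes at 29 and 782 ± 5.67 at 18, both without overlap (exact permutation p = 0.0286, adjusted 0.107). None of the 15 measures passed after adjustment.

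The changes in slow and in WT heads were then set side by side, since an interaction would show circles that answer to the title number in one genotype more than in the other. By edgeR, 0 of 1221 junctions (0.0%) had an interaction with an adjusted p below 0.05, 50 had an unadjusted p below 0.05, and the smallest adjusted p was 0.853. No other tool was run on the interaction. Within slow heads 39 junctions were called (3.19%), 11 higher and 28 lower, and within WT heads 90 (7.37%), 38 higher and 52 lower. The 2 counts rest on unequal depth, with the slow18 libraries the shallowest, and do not show that the genotypes differ. Over the 314 junctions with at least 50 reads the change in slow and the change in WT had the same sign at 241, with a Pearson r of 0.719 across junctions, which are not independent replicates and share the libraries and their scaling. The Bsg change was -2.85 in slow and -3.63 in WT heads on the log2 scale, that of Ank2 was 2.16 and 3.02, and that of dlg1 was -1.96 and -2.27. CG1358 changed by 2.89 in slow and 1.46 in WT heads, and CG30089 by 2.50 and 1.13.

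**Figure D5:**
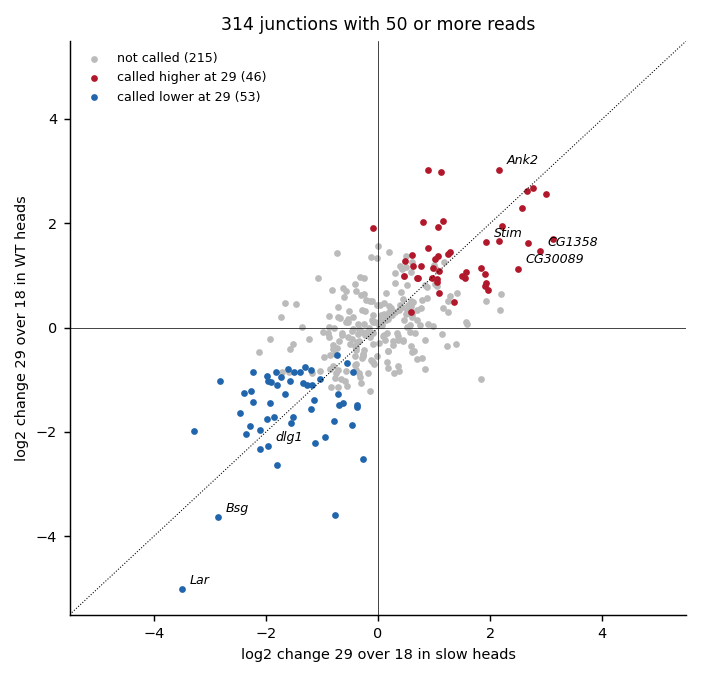
Log2 change, 29 over 18, in slow heads (horizontal axis) and in WT heads (vertical axis) for the 314 junctions with 50 or more reads over the 8 libraries. Red points were called higher and blue points lower in the fit over both genotypes, and the dotted line marks equal change. Lar, Bsg and dlg1 lie low and Ank2 high on both axes.

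Mock libraries, which had no RNase R, carry the same 4 names and replicate numbers. In these 8 libraries 230 junctions had enough reads to be tested, and 11 were called (4.78%). Of those 11, 9 were also called after RNase R, in the same direction, and of all 230, 67 were called after RNase R. Mock values are set side by side only and are not read as independent replication. The 9 were dlg1, CG42345, Bsg, bt at 4:758362-758535 and ps, lower, and mGluRA, Stim, CG31619 and CG40084, higher. In mock, dlg1 averaged 19.1 ± 11.9 reads per 10000 at 29 and 101 ± 14.8 at 18 (SD, n = 4 each), on 17 and 42 reads (-2.35 ± 0.44). For mGluRA the means were 35.9 ± 15.1 at 29 and 3.17 ± 6.34 at 18, on 37 and 2 reads, and for Bsg 3.69 ± 3.08 at 29 and 28.4 ± 14.3 at 18, on 4 and 12 reads. Ank2 averaged 26.2 ± 12.5 at 29 and 4.41 ± 5.48 at 18, on 24 and 2 reads, which did not pass (2.28 ± 0.82, edgeR adjusted p = 0.077). Of the 179 junctions called after RNase R, 67 had enough mock reads to be tested.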

How the data were processed

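Heads of *Drosophila melanogaster* were the source of the 8 RNase R libraries, treated with 3 units of RNase R per microgram of RNA for 15 minutes at 37 °C, per the labels' protocols. The authors deposited whole-number counts of back-splice reads per junction and library, 1 table for each replicate. Each table lists junctions by their position in the build dm3, and CASAVA and Bowtie are named in the submitters' processing notes. A junction's counts are held in 1 list column of the deposited tables, as library names with read numbers (unit other in kind, since the list is text), and they added up to the listed total in every row. No column held values without a sample (0 columns). The sources used here do not say whether reads were counted by strand, and 1.71% of the reads had no host gene.

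Library size was the sum of listed reads. Junctions in both tables with at least 10 reads over the 8 libraries and reads in at least 2 were tested in edgeR 4.0.16 (limma 3.58.1, R 4.3.3) with a quasi-likelihood F-test, two-sided, with genotype as a factor and Benjamini-Hochberg adjustment at 0.05. TMM factors came from the 100 junctions with the highest mean reads per 10000. Ranking by this mean, not by summed reads, was chosen after seeing the data, and both are reported. Host genes were tested on sums over all their listed junctions, junction shares with diffSpliceDGE (as log2), and the interaction in the same model. SE is the log2 change divided by the root of F. Library measures had exact two-sided permutation tests over 70 splits, without genotype as a factor. Folds against a group without reads use 3 reads over that group. Exon classes compare span lengths with exons of the later build BDGP6, and current gene names stand in brackets. DESeq2 1.42.0, other scalings and filters, a replicate block and leaving out libraries were alternatives. Tables and figures were made with Python 3.11.15, pandas 2.3.3, numpy 2.4.6 and matplotlib 3.10.9. The fits were tested on simulated data with a fixed spread, the same for every junction and gene and not estimated from these libraries. They recovered 13.5% of 2-fold and 43.4% of 4-fold changes of junctions, and 25.8% and 68% for host genes. These rates hold for that spread only, and a junction or gene that was not called may still differ.

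The members and gene lists were chosen with earlier results of these data known. Named junctions are the 12 higher and 16 lower ones with the smallest p that moved one way in all 4 same-numbered pairs, every called junction in a listed gene, and the 10 most abundant. Named host genes are the 8 higher and 8 lower with the smallest p among those with 2 or more tested junctions, and those with junctions called both ways. For shares, the rule takes the 12 with the smallest p. Other junctions named (in mock, without a host gene, on chromosome 4 and the scaffolds) were chosen after their values were seen. Sequences were not used here, and 1 named gene is not reported here.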

Additional observations from a re-analysis of the deposited data

Results flagged for a closer look

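In groups of 4 libraries, a library was marked when its gap to the nearest other exceeded Dixon's 95% limit for the range of its group. Past the limit were 4 groups, 3.85% of those checked, where chance alone marks about 1 in 20. At dlg1, X:11291858-11292855, the first WT29 library had 15.8 reads per 10000, the lowest of the 29 libraries, whose others had 29.7 to 32.2. At bt, 4:756141-758535, the first slow18 library had 45.7, the highest of the 18 libraries, whose others had 18.8 to 20.5. At scro, 3LHet:209156-209624, the first slow18 library had 214 reads per 10000, the highest of the 18 libraries, whose others had 179 to 183. The median span of the circles, taken over reads, was 863 bases in the first WT29 library, the highest of the 29 libraries, whose others had 690 to 705.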

How the results depend on the processing

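The counts of calls moved with depth, tool and library. With at least 50 reads, 112 of 314 junctions tested were called, 51 higher and 61 lower, and by DESeq2 89 of 1221, of which 40 were lower. The slow libraries alone gave 44 of 567 tested, 18 higher and 26 lower. The WT libraries alone gave 44 of 881 tested, 18 higher and 26 lower, so the equal counts are not equal shares. DESeq2 called 61 host genes, 26 of them lower. Leaving out 1 library at a time gave 105 to 184 junctions (34 to 69 higher, 71 to 115 lower), 82 to 133 host genes (26 to 44 higher, 52 to 89 lower), 2 to 11 junction shares and 0 to 1 interactions, the 1 without replicate 1 of WT18. Among junctions, scalings gave 75 higher and 91 lower with library totals, 97 and 74 when TMM used only junctions that every library held, and 58 and 128 with TMM over the 100 junctions with most summed reads. For host genes these were 50 and 72 with totals, 61 and 57 with TMM over all tested junctions, and 39 and 100 with the summed-read TMM. With at least 50 reads 15 of 102 shares tested were called, against 10 of 719 in the main run. Without drawing libraries to 1 depth, the difference in the number of junctions, 29 minus 18, turned to 389.5, and that of host genes to 126.5, since the 29 libraries held more reads on average. With a replicate block 163 junctions were called, 64 higher and 99 lower, 129 host genes, 10 shares and 0 interactions. Deviations of same-numbered libraries correlated by 0.114 between WT29 and WT18 and by 0.007 between slow29 and slow18 over 314 junctions, and over all 6 pairs of groups by -0.004 to 0.207, the highest between slow18 and WT18, so the numbers were not shown to pair the samples. For named single junctions under all alternatives, 1687 values kept their direction and side of the threshold, 348 lost the call and 6 gained it. For named host genes 396 kept it, and for named shares 88 did and 33 lost the call. The cause of these changes was not tested. Depth limits the slow18 libraries most, where 1 read is worth up to 2.05 reads per 10000.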
